A study of Mus musculus with 18 samples.

Results

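The comparison described here sets reprogrammed colon tumour cells (RTCs) against embryonic stem cells (ESCs) of the mouse, gene by gene, with the canonical Wnt and pluripotency genes left aside. RTCs were made from colon tumour cells with the methods used to make induced pluripotent stem cells. The comparison rests on 6 of the 18 arrays of the series, chosen by sample title: RTC 1, RTC 2 and RTC 3 on one side, and on the other the Apc +/+ line, the Apc Min/+ line and the S33 line without doxycycline (dox). The labels do not state the Apc genotype of the RTC lines or what S33 stands for. Min is a truncating mutation of Apc, and the series text names Apc mutation and induced mutant beta-catenin as its subjects. Both groups were grown in Knockout DMEM with fetal serum and LIF. Each array is 1 line, so the spread among the ESC arrays includes differences of genotype, and the labels do not say whether arrays came from separate cultures. The p-values below therefore measure only the spread between these arrays, which may in part be technical.

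Embryonic stem cells stand for the inner cells of the blastocyst, and their cultures move between states. A small share of cells passes through a state that resembles the two-cell embryo, marked by genes such as Zfp352, Tdpoz3 and the Usp17l family. Others lean towards the later, primed epiblast, which is marked by Otx2 and the Zic genes and is prepared for neural fate. Many genes of germ cells and meiosis are silent in these cultures under DNA methylation and Polycomb-type repression at promoters rich in CpG.

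Levels are log2 array intensities after all 18 arrays were brought to one distribution by quantile normalization. The array median was 7.93, and a gene was tested if it exceeded that on at least 1 of the 6 arrays, which 12080 of 19938 genes did. Genes dim in ESCs thus enter through a high level in RTCs, and no detection test was used, so for an ESC level below the median it is not known whether the gene was expressed. A gene is said to have risen or fallen in RTCs if limma, a linear model with a moderated spread, gave a Benjamini-Hochberg adjusted p under 0.05 over all genes tested. Of the genes tested, 3.21% rose (388 genes) and 3.48% fell (420 genes), 6.69% in either direction, with 187 rises and 174 falls of at least 2-fold. The arrays of the 3 RTC lines lay wholly above those of the ESCs in 14.2% of genes and wholly below in 17.7%. The median difference over all genes tested was -0.03, and -0.14 when each array was only centred on its median.

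The 12 markers of pluripotent stem cells averaged 12.57, 12.63 and 12.64 in the RTC lines 1, 2 and 3, against 12.41, 12.55 and 12.40 in the Apc +/+, Apc Min/+ and S33 ESC lines, and 0 of the 12 passed the test. The 10 markers of colon epithelium averaged 7.13 to 7.25 in RTCs and 7.09 to 7.11 in ESCs, below the array median in both groups. RTC 2 with RTC 3, and Apc +/+ with Apc Min/+, are close pairs of arrays. When each pair was averaged into 1 value, an alternative chosen after seeing the data, 56 genes were called in place of 808, 40 higher and 16 lower. In single left-out-array fits, 123 rises and 84 falls were called in all 6. Of the 188 genes under the naming rule below that passed the test, 75 were called in all 6 of these fits and 28 with the pairs averaged. The direction of 0 of them changed under any of the alternatives tried, which reuse the same 6 arrays and so give no independent support.

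**Figure D1:**
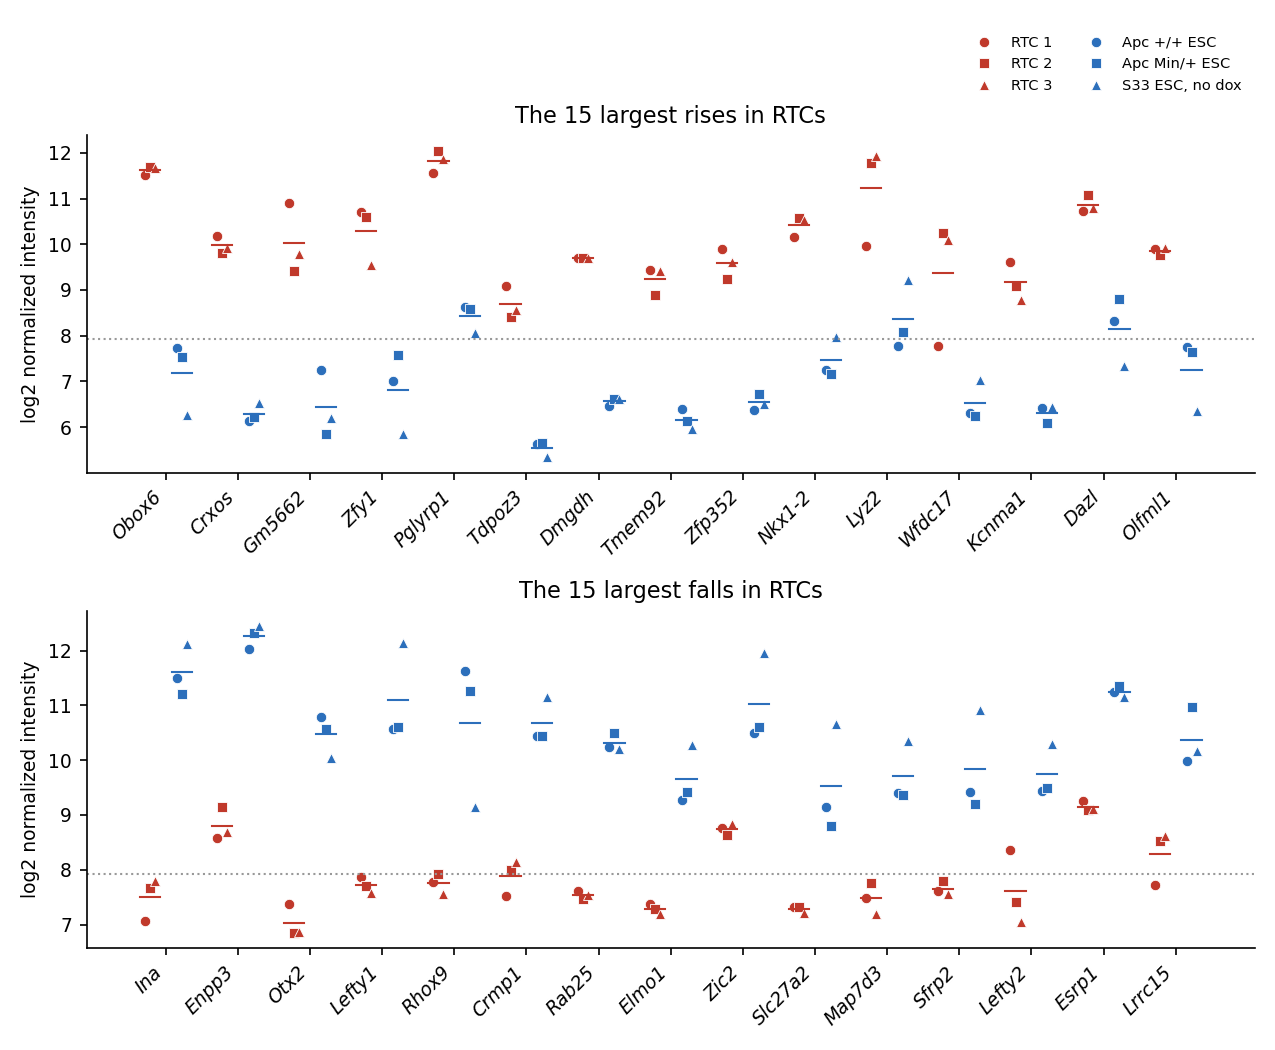
Log2 normalized intensity (vertical axis) of the 15 largest rises (upper panel) and the 15 largest falls (lower panel), with RTC arrays in red to the left of ESC arrays in blue. Each symbol is 1 array, bars are group means over 3 arrays and the dotted line is the array median of 7.93. Most groups are far apart, while Lyz2 and Wfdc17 are lower in RTC 1 than in RTC 2 and RTC 3, and S33 stands away from the other ESCs for Rhox9, Lefty1 and Slc27a2.

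The leading rises included homeobox genes and genes of the earliest embryo. Obox6, a homeobox gene of oocytes and cleavage embryos, had levels of 11.52, 11.69 and 11.67 in the RTC lines 1, 2 and 3, against 7.74, 7.53 and 6.28 in the Apc +/+, Apc Min/+ and S33 ESC lines. This was a 21.8-fold rise (log2 difference 4.44 ± 0.35, SE, limma adjusted p = 0.00109). Its neighbour on chromosome 7, the homeobox gene Crxos, stood at 10.18, 9.82 and 9.93 in the RTC lines, against 6.14, 6.22 and 6.52 in the ESC lines, a 12.8-fold rise (limma adjusted p = 0.000163). No array of either group overlapped the other for these genes, and both calls were also made with the close pairs averaged. Obox genes are related copies, so cross-hybridisation between them cannot be told apart from a rise of Obox6 itself. Of the 3 Obox genes on the array only Obox6 was tested, and the median difference over the 3 was 0.20. Among the 12 paired-class and oocyte homeobox genes tested, Otx2, which drives the step to the primed epiblast, went the other way, at 7.38, 6.85 and 6.87 in RTCs against 10.79, 10.57 and 10.05 in ESCs (fell by 3.44 ± 0.23, limma adjusted p = 0.000575).

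Of 21 two-cell-stage genes on the array, 13 were tested, 8 rose (61.5%, against 3.21% of all genes tested) and 0 fell. The median difference was 1.08 over all 21, against -0.02 over all genes on the array. Tdpoz3, a TRAF-type and POZ domain gene, stood at 9.09, 8.41 and 8.57 in RTCs, against 5.63, 5.66 and 5.34 in ESCs (3.15 ± 0.20, limma adjusted p = 0.000513). Zfp352, a zinc finger gene that marks the two-cell state, was at 9.89, 9.24 and 9.62 in RTCs, against 6.38, 6.73 and 6.51 in ESCs (3.04 ± 0.19, limma adjusted p = 0.000513). RTC 1 was the highest array for both. The membrane protein gene Tmem92 rose by 3.08, the mitochondrial arginase Arg2 by 2.23, and the deubiquitinase genes Usp17lc and Usp17lb by 1.92 and 1.48. Gm5662 rose by 3.59, with 10.89 in RTC 1 and 9.40 and 9.79 in RTC 2 and RTC 3, against 7.26, 5.85 and 6.20 in ESCs. Counts of risers were 7 or 8 in each left-out-array fit and 6 with the close pairs averaged. Another 2 markers of this state did not pass the brightness filter: Usp17la was at 7.93, 7.15 and 7.37 in RTCs against 5.83, 5.81 and 5.74 in ESCs, and Tcstv3 at 7.29, 6.65 and 6.35 against 5.68, 5.63 and 5.67. Members of the Usp17l and Tdpoz families share much of their sequence, so their probe sets are not independent.

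The promoter of Zfp352 is shown because of a repeat unit in it. In RefSeq sequence of GRCm38.p6 (chr4:90218570-90218869, plus strand, 250 bases before to 50 after the transcript start) the letters TAATCC, a core bound by Otx- and Crx-type homeodomains, occur 9 times, and no other promoter of a tested gene held more than 4. Capitals mark TAATCC on either strand.
Zfp352: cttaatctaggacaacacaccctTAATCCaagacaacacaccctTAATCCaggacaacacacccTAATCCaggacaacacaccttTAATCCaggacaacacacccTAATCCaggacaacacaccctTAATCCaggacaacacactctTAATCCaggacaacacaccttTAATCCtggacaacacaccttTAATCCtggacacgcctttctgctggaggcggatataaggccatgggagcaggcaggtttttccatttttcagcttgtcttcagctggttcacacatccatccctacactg
TAATCC was present in 31 of 304 promoters of risers (10.2%), 18 of 315 of fallers (5.71%) and 527 of all 9668 promoters matched (5.45%). Within CpG-poor promoters these were 22 of 162 (13.6%), 11 of 108 (10.2%) and 200 of 2537 (7.88%).

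Some genes of germ cells and meiosis rose as well. Of 63 on the array, 36 were tested, 10 rose (27.8%, against 3.21% of all genes tested) and 2 fell (5.56%, against 3.48%). The median over all 63 was 0.17. Dazl, an RNA-binding protein required in germ cells, was at 10.72, 11.07 and 10.79 in the RTC lines 1, 2 and 3, against 8.32, 8.81 and 7.33 in the Apc +/+, Apc Min/+ and S33 ESC lines (6.53-fold, log2 difference 2.71 ± 0.34, limma adjusted p = 0.00585). Sycp1, the transverse filament of the synaptonemal complex, was at 8.59, 9.67 and 9.26 in RTCs against 7.84, 7.40 and 6.68 in ESCs (1.87 ± 0.35, limma adjusted p = 0.0248). For both genes S33 was the lowest of the 6 arrays. The meiotic axis proteins Hormad2 and Hormad1 rose by 1.74 and 1.35, the germ cell ADP/ATP carrier Slc25a31 by 1.60, the piRNA-binding Piwil2 by 1.59, the testis kinase-like gene Stk31 by 1.50, the crossover factor Tex11 by 1.47, the piRNA pathway gene Mael by 1.24 and the maternal complex gene Ooep by 1.02. The 2 fallers of the list, Dppa3 and Prdm1, are genes of the early germ line. Falls were also called for the meiosis genes Mei4 and Zcwpw1, which the list does not hold. Dppa3, the maternal factor Stella, fell by 1.46 ± 0.22 (limma adjusted p = 0.0119) and Prdm1, which specifies primordial germ cells, fell by 0.69 ± 0.13 (limma adjusted p = 0.026).

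Other germline genes gave no call: Ddx4, the germ cell RNA helicase Vasa, stood at 9.81, 9.75 and 9.70 in RTCs against 10.28, 10.32 and 9.37 in ESCs, and Dppa2 averaged 12.89 ± 0.09 in RTCs and 12.84 ± 0.11 in ESCs (SD, n = 3 each). The number of risers was 6 without RTC 2 and 6 without RTC 3, and 0 with the close pairs averaged. Sycp1 lost its call without RTC 2, RTC 3 or Apc Min/+ (limma adjusted p up to 0.0937), Hormad2 without RTC 2 or Apc Min/+ (up to 0.053), Ooep without RTC 3 (0.0595), Dppa3 without RTC 2 or Apc Min/+ (up to 0.0552), Hormad1 without any RTC line (up to 0.0737), Stk31 without any array but S33 (up to 0.122), and Prdm1 without RTC 2, RTC 3, Apc +/+ or Apc Min/+ (up to 0.12).

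**Figure D2:**
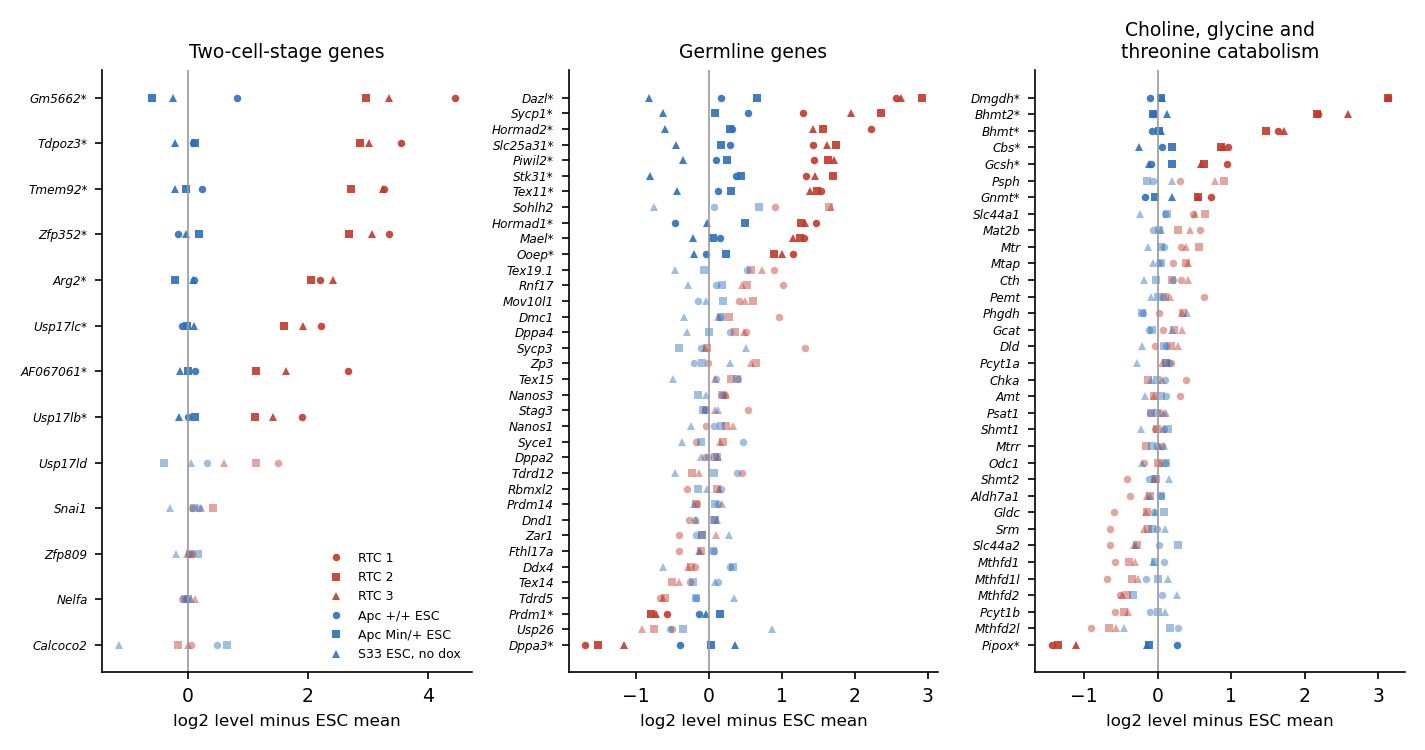
Log2 level of each array minus the mean of the 3 ESC arrays (horizontal axis) for the tested members of 3 gene lists, RTCs in red and ESCs in blue, ordered by difference. Asterisks and full colour mark genes that passed the test. The leading risers stand apart from the bulk of the germline and choline lists. In the two-cell-stage list 8 of the 13 tested genes are risers, and RTC 1 is highest for 7 of these 8.

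Promoters of 8 of the 10 germline risers were found in RefSeq sequence of GRCm38.p6, and 7 of the 8 were CpG-rich (CpG observed over expected of at least 0.6 in the 300 bases). The E-box CACGTG, bound by Myc-type and Mga-type dimers with Max, was in 5 of the 8, against 1025 of all 9668 promoters (10.6%) and 38 of 304 risers (12.5%). Within CpG-rich promoters it was in 28 of 142 risers (19.7%), the germline genes included, 25 of 207 fallers (12.1%) and 847 of all 7131 (11.9%). The 6 copies are shown with 10 bases on each side because they lie in different genes of one group. The strand given is that of the gene, and capitals mark the E-box.
Hormad1 (upstream copy), chr3:95559610-95559635, plus strand: aagggtgcgcCACGTGccagtgacag
Hormad1 (downstream copy), chr3:95559647-95559672, plus strand: gcgcactgcgCACGTGctgaccggag
Mael, chr1:166238952-166238977, minus strand: ccaggcctacCACGTGacaatccccg
Slc25a31, chr3:40708768-40708793, plus strand: caactggaaaCACGTGttatggtcac
Stk31, chr6:49395474-49395499, plus strand: gccggccaccCACGTGaccagggctg
Sycp1, chr3:102936179-102936204, minus strand: gagaacccggCACGTGggaagggaaa
Dazl, Hormad2 and Ooep had no CACGTG in the window. The motif was picked after the values were seen, so the share is a description of these promoters.

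A compact rise concerned the breakdown of choline, in which betaine and dimethylglycine give up methyl groups to homocysteine and folate. Dmgdh, the mitochondrial dimethylglycine dehydrogenase, was at 9.70 in each of the 3 RTC lines, against 6.47, 6.62 and 6.62 in the Apc +/+, Apc Min/+ and S33 ESC lines (8.74-fold, 3.13 ± 0.11, limma adjusted p = 9.9e-05). Bhmt2, a homocysteine methyltransferase, was at 9.32, 9.30 and 9.72 in RTCs against 7.08, 7.07 and 7.26 in ESCs (2.31 ± 0.15, limma adjusted p = 0.000575). Bhmt, the betaine-dependent enzyme, was at 8.78, 8.62 and 8.87 in RTCs against 7.08, 7.17 and 7.20 in ESCs (1.61 ± 0.12, limma adjusted p = 0.00094). The groups are far apart for all 3, each call was made in all 6 left-out-array fits, and each was made with the close pairs averaged.

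Cbs, which channels homocysteine into cysteine, rose by 0.90, Gcsh of the glycine cleavage system by 0.72 and Gnmt, the glycine N-methyltransferase, by 0.61, while the peroxisomal sarcosine oxidase Pipox fell by 1.30 ± 0.16 (limma adjusted p = 0.00538). In all, 6 of 34 tested members of the choline, glycine and threonine list rose (17.6%) and 1 fell (2.94%). Of all genes tested, 3.21% rose and 3.48% fell. The median of the list was 0.07 over the 37 on the array. Gldc, which pairs with Gcsh, was at 11.58, 12.03 and 12.01 in RTCs against 12.11, 12.25 and 12.14 in ESCs and did not pass. The list had 3 risers without RTC 2, RTC 3 or Apc +/+: Cbs lost its call without each of them (limma adjusted p up to 0.072), and Gcsh and Gnmt without any of 5 arrays (up to 0.109 and 0.147). The folate enzyme Aldh1l1, outside this list, was at 9.57, 9.59 and 9.49 in RTCs against 8.28, 8.16 and 7.68 in ESCs (1.51 ± 0.17, limma adjusted p = 0.0042).

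Dmgdh and Bhmt2 lie head to head on chromosome 13 with starts 134 bases apart, and Bhmt follows. Their RefSeq promoter windows share 233 bases, shown in capitals within the Dmgdh window (GRCm38.p6, chr13:93674186-93674485, plus strand), which has 25 CG pairs.
Dmgdh: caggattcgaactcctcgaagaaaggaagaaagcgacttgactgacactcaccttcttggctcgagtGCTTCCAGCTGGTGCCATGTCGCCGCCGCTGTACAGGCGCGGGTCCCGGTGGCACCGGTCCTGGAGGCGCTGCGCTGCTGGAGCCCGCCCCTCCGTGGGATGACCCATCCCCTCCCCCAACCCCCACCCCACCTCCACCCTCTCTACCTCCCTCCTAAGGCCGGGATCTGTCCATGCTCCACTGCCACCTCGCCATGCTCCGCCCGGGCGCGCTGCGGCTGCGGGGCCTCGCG

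On the side of falls, 13 of 42 tested members of the neuronal list fell (31.0%, against 3.48% of all genes tested) and 0 rose, with a median of -0.35 over the 66 on the array. The list does not cover all neural genes, and outside it Gad1, Npy, Tac2, Nos1, Htr5a and Chrnb4 rose. Ina, the neuronal intermediate filament alpha-internexin, had levels of 7.07, 7.67 and 7.79 in the RTC lines 1, 2 and 3, against 11.50, 11.21 and 12.12 in the Apc +/+, Apc Min/+ and S33 ESC lines, a 17.2-fold difference (fell by 4.10 ± 0.28, limma adjusted p = 0.000575). Crmp1, a mediator of axon guidance, was at 7.52, 8.0 and 8.14 in RTCs against 10.44, 10.45 and 11.15 in ESCs (fell by 2.79 ± 0.24, limma adjusted p = 0.00152). Elmo1, a Rac activator, fell by 2.38 ± 0.26 (limma adjusted p = 0.00376). For these 3 genes every RTC array was below every ESC array, and the calls were also made with the close pairs averaged.

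The zinc finger genes Zic2 and Zic5, adjacent on chromosome 14, fell by 2.27 and 1.43, and S33 was the highest array for both, at 11.96 and 12.24 against 10.49 and 11.08 in Apc +/+ ESCs. Smaller falls were those of the proneural factor Neurod1 (-1.78), the neuronal tubulin Tubb3 (-1.32), Pax6 (-1.29), Insm1 (-1.23), the RNA-binding Elavl3 (-1.19), the retinoic acid binding genes Crabp2 (-0.90) and Crabp1 (-0.82), and Gpm6b (-0.67). The early neural factor Sox1 gave no call, with 8.74, 8.39 and 8.61 in RTCs against 7.95, 8.39 and 9.19 in ESCs. The count of fallers was 6 without RTC 2, 6 without RTC 3 and 7 without Apc Min/+, and 3 with the close pairs averaged. Zic2 lost its call without RTC 2 or RTC 3 (limma adjusted p up to 0.0551), Elavl3 also without Apc Min/+ (up to 0.0608), and Zic5, Neurod1, Crabp1, Crabp2 and Gpm6b in at least 4 of the fits, but not without S33 (up to 0.132). Tubb3, Pax6 and Insm1 were called in all 6.

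Several genes of epithelial identity fell too. Of 45 tested, 16 fell (35.6%, against 3.48% of all genes tested) and 2 rose (4.44%, against 3.21%). The median over the 56 on the array was -0.38. Rab25, a small GTPase of epithelial recycling endosomes, was at 7.62, 7.47 and 7.55 in RTCs against 10.24, 10.50 and 10.20 in ESCs (6.80-fold lower, fell by 2.77 ± 0.13, limma adjusted p = 0.000239). Esrp1, which sets epithelial splicing, was at 9.25, 9.08 and 9.10 in RTCs against 11.25, 11.35 and 11.14 in ESCs (fell by 2.10 ± 0.12, limma adjusted p = 0.000466). The groups did not overlap for either gene, and the arrays of each group lay close together.

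The transcription factor Grhl2, which activates epithelial genes, fell by 1.38, the membrane protease Prss8 by 1.37, the desmosome protein Dsp by 1.32, P-cadherin Cdh3 by 1.28, Krt7 by 1.27 and the tight junction proteins Tjp3 and Cgn by 1.02 and 0.68. E-cadherin Cdh1 averaged 11.94 ± 0.21 in RTCs and 12.50 ± 0.20 in ESCs (SD, n = 3 each) and did not pass (limma adjusted p = 0.0837). The 2 risers were the laminin receptor chain Itgb4 (0.60) and Pdzk1ip1 (0.77). The fallers numbered 4 without Apc Min/+, 5 without Apc +/+ or RTC 3, 6 without RTC 2 and 2 with the close pairs averaged, where Rab25 and Esrp1 were called. Dsp, Cdh3, Krt7, Tjp3, Itgb4 and Pdzk1ip1 lost their calls without Apc Min/+ (limma adjusted p = 0.058, 0.0557, 0.0901, 0.0547, 0.098 and 0.13) and without at least 1 other array, and Cgn without any array but RTC 1 (up to 0.162).

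The Nodal pathway signals through Smad2 and Smad3 and induces its own antagonists, Lefty1 and Lefty2. Lefty1 was at 7.87, 7.70 and 7.57 in the RTC lines 1, 2 and 3, against 10.56, 10.60 and 12.13 in the Apc +/+, Apc Min/+ and S33 ESC lines (10.4-fold lower, fell by 3.38 ± 0.40, limma adjusted p = 0.00449). Lefty2 was at 8.37, 7.41 and 7.04 in RTCs against 9.43, 9.50 and 10.29 in ESCs (fell by 2.14 ± 0.37, limma adjusted p = 0.0184). S33 was the highest array for both genes. The Smad corepressor Skil fell by 0.92 and Smad3 itself by 0.73. That makes 4 of 25 tested members (16.0%, against 3.48% of all genes tested), with 0 risers. The median was -0.05 over the 29 on the array. The ligand gene Nodal was at 11.29, 10.73 and 10.83 in RTCs against 10.80, 10.75 and 10.63 in ESCs, and its co-receptor Tdgf1 averaged 13.74 ± 0.03 in RTCs and 13.51 ± 0.06 in ESCs (SD, n = 3 each). Neither passed the test. Lefty2 lost its call without RTC 2, RTC 3 or Apc Min/+ (limma adjusted p up to 0.0645), and Skil and Smad3 without any array but S33 (up to 0.12 and 0.126), so that 1 faller was left without RTC 2, RTC 3 or Apc Min/+ and 2 without RTC 1 or Apc +/+.

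The 30 primed and formative genes on the array had a median of -0.65. Among 28 tested there were 7 falls (25.0%, against 3.48% of all genes tested) and 0 rises. Besides Otx2, the largest was Enpp3, an ectoenzyme that cleaves nucleotides, at 8.59, 9.14 and 8.69 in RTCs against 12.02, 12.31 and 12.44 in ESCs (fell by 3.45 ± 0.19, limma adjusted p = 0.000374). The de novo DNA methyltransferase Dnmt3a fell by 0.99 and the tight junction gene Cldn6 by 0.67, while Dnmt3b was at 9.52, 10.54 and 10.36 in RTCs against 11.04, 10.91 and 11.87 in ESCs and did not pass. Fgf5, the classical gene of the primed epiblast, was at 7.17, 7.58 and 7.37 in RTCs against 7.75, 7.82 and 9.39 in ESCs, also without a call. The receptor Fgfr2 was at 7.44, 7.41 and 7.50 in RTCs against 9.53, 9.47 and 9.07 in ESCs (fell by 1.91 ± 0.15, limma adjusted p = 0.0011). The list kept 3 fallers without RTC 2 or RTC 3 and 4 without RTC 1, Apc +/+ or Apc Min/+. Otx2, Enpp3 and Fgfr2 were called in all 6 of these fits, and Dnmt3a and Cldn6 only in the fit without S33 (limma adjusted p up to 0.124 and 0.164 in the others).

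Genes best known from blood cells included risers of 2 patterns. Of 54 myeloid genes on the array, 27 were tested, 5 rose (18.5%, against 3.21% of all genes tested) and 0 fell. Lyz2, the lysozyme of macrophages, was at 9.96 in RTC 1 and at 11.78 and 11.94 in RTC 2 and RTC 3, against 7.77, 8.08 and 9.22 in the Apc +/+, Apc Min/+ and S33 ESC lines (2.87 ± 0.57, limma adjusted p = 0.029). The macrophage surface marker Adgre1 was at 6.41 in RTC 1 and at 8.24 and 8.32 in RTC 2 and RTC 3, against 6.03, 6.11 and 5.93 in ESCs, and did not pass. RTC 1 was near the ESC level for Adgre1, while RTC 2 and RTC 3 were well above it. Tyrobp, an adaptor of myeloid receptors, had the same order, with 7.61 in RTC 1 and 8.85 and 9.03 in RTC 2 and RTC 3, against 7.06, 6.75 and 7.04 in ESCs (1.55 ± 0.35, limma adjusted p = 0.0434). The myeloid transcription factor Spi1 rose by 1.17 and the Fc receptor Fcgr3 by 0.93.

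The 9 macrophage markers averaged 7.44, 8.54 and 8.50 in the RTC lines 1, 2 and 3, against 7.17, 7.15 and 7.33 in ESCs, and 2 of the 9 passed the test. The pan-leukocyte gene Ptprc was at 6.38, 6.83 and 6.67 in RTCs against 6.56, 5.97 and 6.38 in ESCs, below the array median throughout. The number of myeloid risers was 19 without RTC 1, 6 without S33, 2 without Apc +/+ and 1 without RTC 2, RTC 3 or Apc Min/+. Markers of primitive endoderm, the extraembryonic layer of the blastocyst, had the same order of RTC lines: the 6 averaged 7.64, 9.21 and 8.67 in RTCs against 7.91, 8.15 and 7.84 in ESCs, and 0 of the 6 passed. Its transcription factor Sox17 was at 6.54, 9.01 and 8.10 in RTCs against 6.70, 6.60 and 6.96 in ESCs. The primitive endoderm list had 2 risers among 29 tested (6.9%, against 3.21% of all genes tested), Cited1 and Hnf4a, and 9 without RTC 1. The part of macrophages or of primitive endoderm in these cultures was not tested, and more cells of a type cannot be told apart from more RNA per cell. Pglyrp1, a secreted binder of bacterial cell walls, differed from that order, at 11.57, 12.04 and 11.86 in RTCs against 8.63, 8.58 and 8.06 in ESCs (10.6-fold, 3.40 ± 0.20, limma adjusted p = 0.000466). It was the myeloid riser called in all 6 left-out-array fits and with the close pairs averaged. Lyz2 and Tyrobp lost their calls without RTC 2, RTC 3, Apc +/+ or Apc Min/+ (up to 0.111 and 0.143), and Tyrobp also without S33 (0.0502). Spi1 was lost without those same 4 arrays (up to 0.0644), and Fcgr3 without RTC 2, RTC 3 or Apc Min/+ (up to 0.121).

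Lymphoid genes formed the other pattern, with RTC 1 as high as the other lines. Of 45 on the array, 12 were tested, 6 rose and 0 fell, and the median over all 45 was 0.02. The T cell receptor chain Cd3g was at 8.48, 7.76 and 8.33 in RTCs against 5.89, 5.84 and 5.81 in ESCs (5.07-fold, 2.34 ± 0.19, limma adjusted p = 0.00111). Cd3e, its neighbour on chromosome 9, was at 9.63, 9.72 and 10.01 in RTCs against 7.91, 8.52 and 8.51 in ESCs (1.47 ± 0.20, limma adjusted p = 0.00747). The B cell receptor chain Cd79b rose by 1.20, the kinase Zap70 by 1.04, Cd7 by 0.94 and the adaptor Lat by 0.91. Their partner Cd3d, below the array median on all 6 arrays and so not tested, was at 7.10, 6.72 and 6.97 in RTCs against 5.75, 6.30 and 6.37 in ESCs, again with no overlap. The groups did overlap for the T cell coreceptors, which also stayed below that median: Cd4 was at 6.50, 6.51 and 6.86 in RTCs against 6.22, 6.83 and 6.66 in ESCs, and Cd8a at 6.68, 6.87 and 7.20 against 7.18, 7.12 and 7.18. Without RTC 2 or RTC 3 there were 3 risers, and 1 (Cd3g) with the close pairs averaged. Zap70, Cd7 and Lat lost their calls without RTC 2, RTC 3 or Apc Min/+ (limma adjusted p up to 0.0731, 0.0816 and 0.108).

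**Figure D3:**
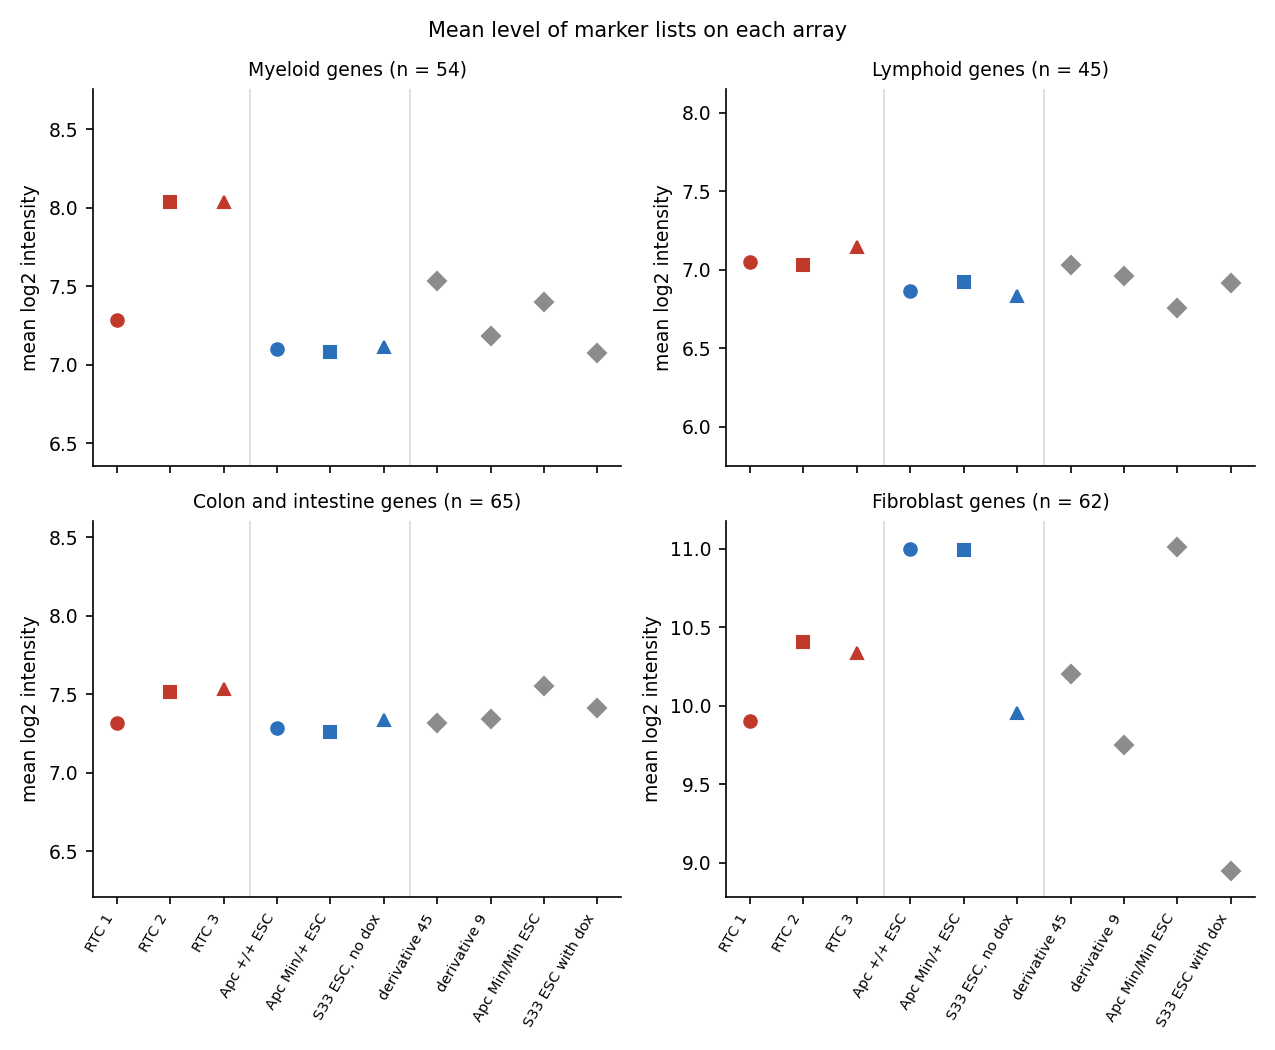
Mean log2 intensity (vertical axis, the same span of 2.4 in each panel) over all members on the array of 4 marker lists, by array: RTCs in red, ESCs of the comparison in blue, and in grey 4 further pluripotent arrays that were not in the test. Myeloid genes averaged 7.28 in RTC 1 but 8.04 in RTC 2 and RTC 3, against 7.08 to 7.11 in ESCs, while fibroblast genes averaged 11 and 10.99 in Apc +/+ and Apc Min/+ ESCs and 9.95 in S33.

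Colon tumours are the stated origin of RTCs, and intestinal genes were measured with this in view. Of 65 on the array, 22 were tested, 6 rose (27.3%, against 3.21% of all genes tested) and 0 fell. The median was 0.07 over the 65. The risers were the caudal homeobox genes Cdx1 (1.90) and Cdx2 (1.58), the peptidases Dpp4 (1.47) and Mep1b (1.40), the nuclear receptor Hnf4a (1.00) and the peptide transporter Slc15a1 (0.79). Dpp4 was at 9.50, 9.83 and 9.90 in the RTC lines 1, 2 and 3, against 8.15, 8.18 and 8.48 in the Apc +/+, Apc Min/+ and S33 ESC lines (limma adjusted p = 0.00378). Of the 10 colon markers, 7 stayed below the array median on all 6 arrays, among them the chloride exchanger Slc26a3, at 5.26, 5.36 and 5.40 in RTCs against 5.32, 5.36 and 5.68 in ESCs. The actin-bundling villin gene Vil1, also below it and so not tested, was at 7.56, 7.74 and 7.65 in RTCs against 7.01, 6.93 and 7.15 in ESCs, with no overlap. The other markers beside Hnf4a were Lgals4, at 8.46 in RTC 1 and 6.77 to 7.13 on the remaining arrays, and the keratin Krt8, at 10.36, 11.86 and 11.21 in RTCs against 11.76, 11.54 and 12.49 in ESCs, and neither passed the test. Over the 65 genes the list averaged 7.32, 7.52 and 7.53 in the RTC lines, against 7.29, 7.26 and 7.34 in the ESC lines. In Apc Min/Min ESCs, which took no part in the test, it averaged 7.56, above every RTC array. There Hnf4a was at 8.22, while Vil1, at 7.15, was at the ESC level. A link of these genes to colon origin was not tested. Risers numbered 2 without RTC 3 or Apc Min/+, and 4 without RTC 2 or Apc +/+. Cdx1 and Dpp4 were called in all 6 left-out-array fits, whereas Cdx2 and Hnf4a were lost without RTC 3 or Apc Min/+ (limma adjusted p up to 0.0547 and 0.062), and Mep1b and Slc15a1 without 5 and 4 of the arrays (up to 0.152 and 0.149).

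Of posterior and mesodermal regulators, the caudal genes included, 5 of 31 tested rose (16.1%, against 3.21% of all genes tested) and 0 fell. Among the risers was Nkx1-2, a homeobox gene of the caudal epiblast, at 10.17, 10.57 and 10.53 in RTCs against 7.25, 7.17 and 7.98 in ESCs (7.77-fold, 2.96 ± 0.24, limma adjusted p = 0.0011). The T-box gene Tbx3 rose by 1.20 ± 0.15 (limma adjusted p = 0.00539), and it was called in all 6 left-out-array fits, as was Nkx1-2. The list had 3 risers without RTC 3 or Apc Min/+, where Cdx2 and the zinc finger gene Sp5 (1.52) were lost (limma adjusted p up to 0.0733 for Sp5, which was also lost without RTC 2).

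Trophoblast genes split, with 4 risers (13.8%) and 6 fallers (20.7%) among 29 tested, against 3.21% and 3.48% of all genes tested. Cited1, a CBP/p300-binding coactivator of placental development, was at 10.75, 11.10 and 11.40 in RTCs against 8.73, 9.24 and 8.71 in ESCs (4.56-fold, 2.19 ± 0.21, limma adjusted p = 0.00246). Tfap2c, a regulator of trophectoderm, was at 9.09, 9.17 and 9.32 in RTCs against 10.86, 10.87 and 10.53 in ESCs (fell by 1.56 ± 0.15, limma adjusted p = 0.00187). Rhox9, an X-linked homeobox gene, was at 7.78, 7.93 and 7.56 in RTCs against 11.62 and 11.27 in Apc +/+ and Apc Min/+ ESCs and 9.15 in S33. Its fall of 2.92 on the log2 scale (limma adjusted p = 0.028) was called without S33 but not without any of the other arrays (up to 0.107). There were 11 fallers without S33, 3 without RTC 1 or RTC 3 and 2 without Apc +/+ or Apc Min/+, and there were 2 risers without RTC 2 or Apc +/+ and 1 without RTC 3 or Apc Min/+.

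Of 44 tested imprinted genes, which are expressed from 1 parental copy, 1 rose (2.27%) and 2 fell (4.55%). These shares were near those of all genes tested, 3.21% and 3.48%. The median over the 61 on the array was 0.01. Plagl1, a zinc finger regulator of growth, was at 11.21, 11.15 and 11.07 in the RTC lines 1, 2 and 3, against 9.01, 9.12 and 9.61 in the Apc +/+, Apc Min/+ and S33 ESC lines (3.71-fold, 1.89 ± 0.18, limma adjusted p = 0.00187). Peg3 was at 8.80, 10.24 and 9.33 in RTCs against 11.44, 11.85 and 10.91 in ESCs (fell by 1.94 ± 0.38, limma adjusted p = 0.0275), and Sfmbt2 fell by 1.91 ± 0.41 (limma adjusted p = 0.0381). Single lines ranged widely for others: Mest was at 10.03, 10.90 and 10.91 in RTCs against 11.40 and 11.49 in the Apc +/+ and Apc Min/+ lines and 7.52 in S33, and the noncoding RNA Meg3 at 10.34 in RTC 1 but 8.87 and 8.46 in RTC 2 and RTC 3, against 9.97, 9.75 and 10.50 in ESCs. Peg3 lost its call without RTC 1, RTC 3, Apc +/+ or Apc Min/+ (limma adjusted p up to 0.105), and Sfmbt2 without every array but RTC 2 (up to 0.128). Without S33, 2 imprinted genes rose and 4 fell.

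Of 34 interferon response genes tested, 5 rose (14.7%, against 3.21% of all genes tested) and 1 fell (2.94%, against 3.48%). Xaf1, a proapoptotic interferon target, was at 10.37, 10.26 and 10.14 in RTCs against 8.61, 8.77 and 7.77 in ESCs (1.88 ± 0.25, limma adjusted p = 0.00733). The oligoadenylate synthase Oas1a (1.14), the signal transducer Stat2 (0.80), the nucleic acid sensor Zbp1 (0.73) and Oas2 (0.64) rose by less, and the membrane protein gene Ifitm1 fell by 1.31. Each of these 5 lost its call without RTC 2, RTC 3 or Apc Min/+ (limma adjusted p up to 0.169), so that Xaf1 was the riser common to all 6 fits.

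In lipid metabolism, 4 of 50 tested sterol and fatty acid genes rose (8.0%) and 2 fell (4.0%), against 3.21% and 3.48% of all genes tested. Ebp, a sterol isomerase of cholesterol synthesis, was at 11.32, 10.97 and 10.99 in RTCs against 9.87, 9.64 and 9.80 in ESCs (2.50-fold, 1.32 ± 0.15, limma adjusted p = 0.00388). The fatty acid transporter and CoA ligase Slc27a2 was at 7.33, 7.33 and 7.21 in RTCs against 9.14, 8.80 and 10.66 in ESCs (fell by 2.25 ± 0.43, limma adjusted p = 0.0261), and lost its call without any array but Apc Min/+ and S33 (up to 0.0953). The CoA ligase Acsl5 fell by 1.17 ± 0.14 (limma adjusted p = 0.00435), in all 6 left-out-array fits. Risers of this list numbered 1 without RTC 3 and 2 without RTC 2 or Apc Min/+.

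Among fibroblast and matrix genes 5 of 59 tested fell (8.47%, against 3.48% of all genes tested) and 0 rose. The fallers were the matrix glycoprotein Tnc (-1.52), the actin-binding Cnn1 (-1.30), Igfbp3 (-1.17), Tpm1 (-1.09) and Tagln (-0.67). The median over the 62 on the array was -0.45, and the list averaged 9.90, 10.40 and 10.33 in the RTC lines 1, 2 and 3, against 11 and 10.99 in the Apc +/+ and Apc Min/+ lines and 9.95 in S33, so the group ranges overlapped. Without S33 there were 26 fallers, against 3 without RTC 3 and 2 without Apc +/+ or Apc Min/+. The sources used here do not say whether feeder fibroblasts were present, and their part in these values was not tested. Of the listed genes that cells of all types use, ribosomal proteins gave 2 calls in 56 tested, both of them retrogene-like copies: Rpl39l rose by 1.32 ± 0.12 (limma adjusted p = 0.00167) and Rpl10l by 1.23 ± 0.15 (limma adjusted p = 0.00553). Oxidative phosphorylation gave 3 risers in 76 tested (3.95%, near the 3.21% of all genes tested). Of these, 2 were tissue-restricted cytochrome oxidase subunits, Cox6b2 (0.86) and Cox4i2 (0.75), beside Uqcrq (0.50). These 3 were each lost in at least 3 of the left-out-array fits (up to 0.175). The median over the 76 oxidative phosphorylation genes was 0.22, against -0.02 over all genes on the array. RTC arrays lay wholly above the ESC arrays for 27 of the 76 and wholly below for 4. Over all genes tested these shares were 14.2% and 17.7%.

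Several lists gave no call by limma, among them the BMP pathway (34 tested, 4 with an unadjusted p under 0.05), collagen chains (29 tested, 2 such), genes that silence transposable elements (25 tested, 5 such), basement membrane genes (16 tested, 1 such), serpins (11 tested, 2 such) and tetraspanins (14 tested, 4 such). Without S33 the first 2 of these lists had 3 and 4 fallers. The BMP ligand Bmp4 averaged 11.30 ± 0.35 in RTCs and 11.21 ± 0.27 in ESCs (SD, n = 3 each). The corepressor Trim28 was at 12.81, 13.10 and 13.09 in RTCs against 13.14, 13.30 and 13.15 in ESCs. In large families, 12 of 205 solute carriers rose (5.85%) and 10 fell (4.88%). Of 294 Zfp and Zscan genes, 11 rose (3.74%) and 13 fell (4.42%). These shares were near the 3.21% and 3.48% of all genes tested. Without RTC 3 the counts were 4 and 3 solute carriers, and 4 and 0 zinc finger genes. Of 50 genes of FGF and ERK signalling tested, 2 rose (4.0%) and 4 fell (8.0%). Among the fallers was the transcription factor Jun (-1.39), which was lost without RTC 2 or RTC 3 (up to 0.062). Of 60 cell cycle genes 0 rose and 3 fell (5.0%), the mitotic kinesin Kif20a (-1.61), Mycn (-1.13) and E2f3 (-0.76). Mycn was called in all 6 left-out-array fits, and the other 2 were lost without RTC 2, RTC 3, Apc +/+ or Apc Min/+ (up to 0.0791).

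Several of the 15 largest rises and falls belong to no list above. Kcnma1, a calcium-activated potassium channel, was at 9.62, 9.08 and 8.79 in RTCs against 6.43, 6.08 and 6.45 in ESCs (7.19-fold, 2.85 ± 0.23, limma adjusted p = 0.00109). Olfml1, which encodes an olfactomedin-like protein, was at 9.89, 9.76 and 9.92 in RTCs against 7.76, 7.63 and 6.36 in ESCs, where S33 was the lowest array. Wfdc17 was at 7.79 in RTC 1 and at 10.25 and 10.10 in RTC 2 and RTC 3, against 6.32, 6.24 and 7.03 in ESCs, the order seen for Lyz2, and its call was lost without RTC 2, RTC 3, Apc +/+ or Apc Min/+ (limma adjusted p up to 0.132). Among the falls, Map7d3, of a family of microtubule-associated proteins, was at 7.48, 7.76 and 7.19 in RTCs against 9.40, 9.37 and 10.35 in ESCs, and the membrane protein gene Lrrc15 at 7.72, 8.53 and 8.62 against 9.99, 10.97 and 10.16. Kcnma1, Olfml1, Map7d3 and Lrrc15 were called in all 6 left-out-array fits. Sfrp2, a secreted modulator of Wnt signals, fell by 2.19 ± 0.41 (limma adjusted p = 0.024) and lost its call without any RTC line or Apc +/+ (up to 0.0902).

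**Figure D4:**
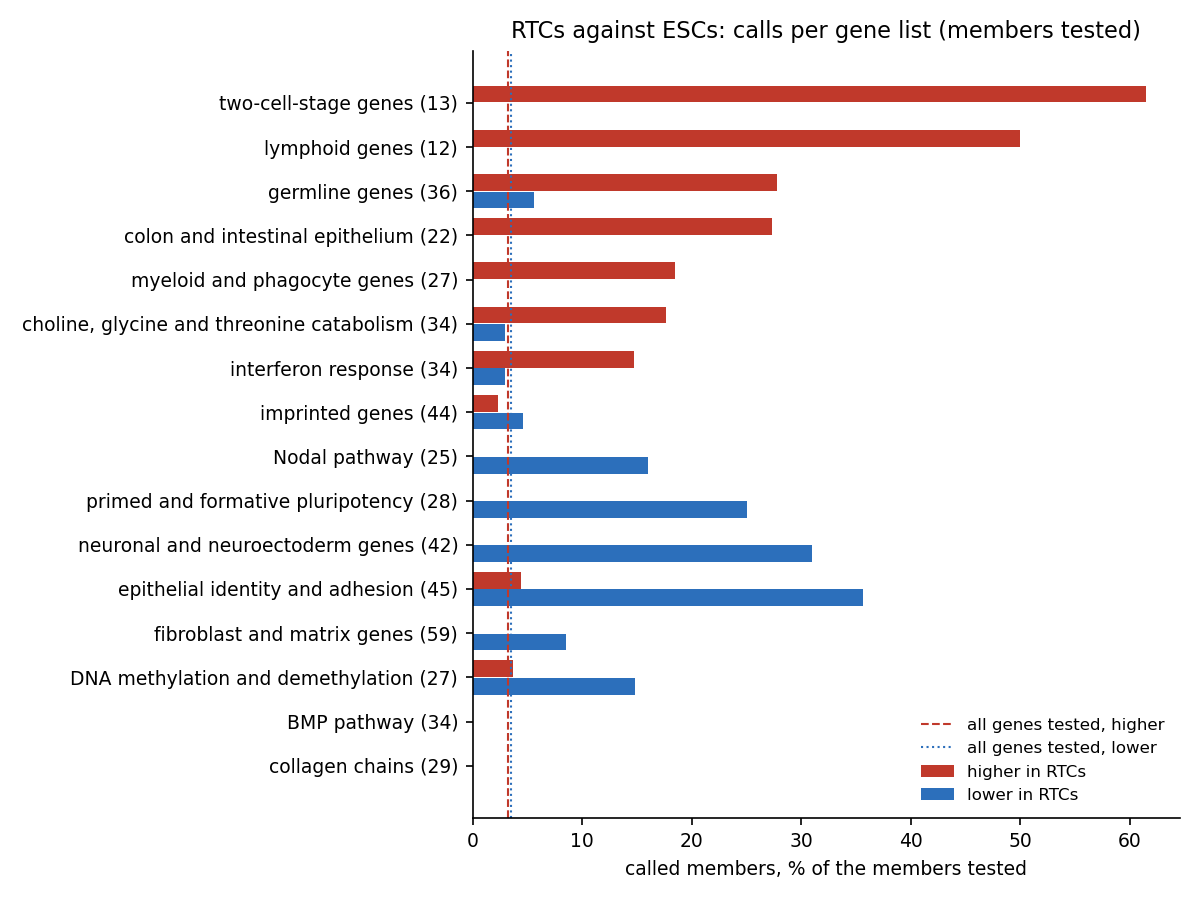
Members that passed the test as a percentage of the members tested (horizontal axis) for 16 gene lists, with the number tested in parentheses, rises in RTCs in red above falls in blue. The dashed and dotted lines mark 3.21% higher and 3.48% lower over all genes tested. Two-cell-stage and lymphoid lists reach 61.5% and 50% higher on 13 and 12 tested genes, and epithelial and neuronal lists 35.6% and 31.0% lower. Members dim in ESCs were tested only if high in RTCs, which raises the shares of rises. Of all members on the array, 8 of 21 two-cell-stage and 6 of 45 lymphoid genes rose.

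Some of the called genes were neighbours. Taking the tested genes in their order along each chromosome, 58 pairs and 4 longer runs of adjacent genes were called in 1 direction, 129 genes in all. How many such runs would arise by chance was not tested, and untested genes may lie between the members. The longer runs were Bhmt, Bhmt2 and Dmgdh on chromosome 13 and Oat, Nkx1-2, Lhpp and Fam53b on chromosome 7, all higher, and Lefty2, Lefty1 and Tmem63a on chromosome 1 and Galnt3, Ttc21b and Stk39 on chromosome 2, all lower. From first to last gene start they spanned 57, 154, 49 and 2127 kb, in that order, and some pairs were also far apart, such as Tbc1d5 and Satb1 (1003 kb). In the run on chromosome 7, Lhpp, a phosphatase gene, was at 12.03, 12.15 and 12.14 in RTCs against 10.26, 9.89 and 10.22 in ESCs (3.95-fold, 1.98 ± 0.14, limma adjusted p = 0.000725). Oat, the mitochondrial ornithine aminotransferase, rose by 0.84 and Fam53b by 0.58, and both lost their calls without RTC 2, RTC 3 or Apc Min/+ (limma adjusted p up to 0.105 and 0.181). The Ttc21b gene, which encodes a ciliary transport protein, was at 7.86, 7.77 and 7.51 in RTCs against 9.18, 9.08 and 9.21 in ESCs (fell by 1.44 ± 0.14, limma adjusted p = 0.00196).

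Median differences of single chromosomes, the autosomes and the X, ran from -0.07 to 0.00. Calls were made in 12.4% of the 388 tested genes of the X (27 rose and 21 fell), against 5.64% to 8.28% on single autosomes and 6.50% on all of them. In the left-out-array fits these shares were 4.44% to 17.7% on the X and 1.85% to 9.57% on the autosomes, lowest without RTC 3 and highest without S33, and with the close pairs averaged they were 0.785% (3 genes) and 0.442%. Y-linked genes varied between lines. Zfy1, a zinc finger gene, was at 10.71, 10.59 and 9.54 in RTCs against 7.01, 7.58 and 5.86 in ESCs (3.46 ± 0.47, limma adjusted p = 0.00733), and its neighbour Uba1y at 9.55, 10.58 and 9.22 against 7.69, 7.73 and 7.45 (2.16 ± 0.32, limma adjusted p = 0.0107). Both calls were made with the close pairs averaged, and S33 was the lowest array for each. Other Y-linked genes did not pass: Eif2s3y averaged 10.90 ± 0.82 in RTCs and 9.29 ± 0.83 in ESCs, and Kdm5d 7.64 ± 0.75 in RTCs and 7.13 ± 0.76 in ESCs (SD, n = 3 each). Zfy1 and its copy Zfy2 are alike in sequence and may share signal.

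The CpG content of the promoters is given as a description, with no test. By the 0.6 threshold, 46.7% of the genes that rose (142 of 304) and 65.7% of those that fell (207 of 315) had CpG-rich promoters, against 73.8% of the 9668 tested genes with a RefSeq promoter. Among rises of at least 2-fold it was 41.5%. The 4 two-cell-stage risers with a promoter, Zfp352, AF067061, Usp17lb and Usp17lc, had 1 or 2 CG pairs in 300 bases and none was CpG-rich, unlike the germline risers above. In all, 10 motifs were searched on both strands, with no test: those of Zfp352 and the germline genes above, and 8 others. The Tcf-type letters CTTTGAT were in 3.95% of risers' promoters, against 2.59% of all, and the related CTTTGAA were in 4.61%, against 3.44%. The Ets-type CCGGAA was in 16.8% of risers and 14.6% of fallers, against 28.1% of all, and GGGCGG in 57.2%, 69.8% and 66.5%. TATAAA was in 8.88%, 8.89% and 6.94%, CCAAT in 38.2%, 34.6% and 38.7%, TTCCCGC in 4.61%, 7.94% and 8.80%, and AATCACA in 4.93%, 2.22% and 2.85%. Motif shares follow CpG content in part, and a match is only a match of letters.

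**Figure D5:**
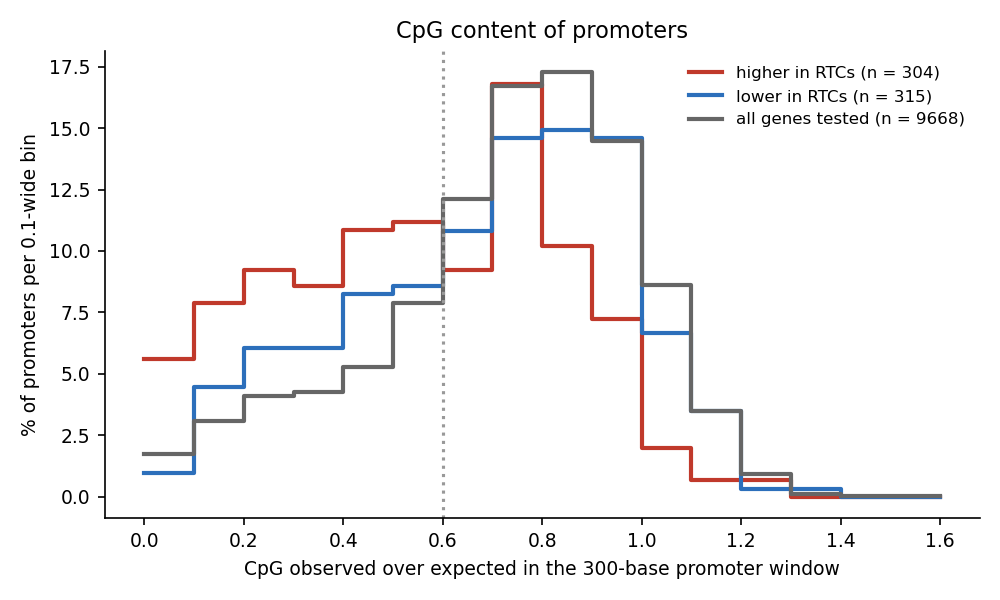
Distribution of CpG observed over expected in promoter windows (horizontal axis) as a percentage of promoters per bin (vertical axis) for genes higher in RTCs (red, 304), lower in RTCs (blue, 315) and all genes tested (grey, 9668). The dotted line is the threshold of 0.6. The red line lies above the grey one to the left of it and below it over most of the range to the right.

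Levels in the other pluripotent arrays of the series, which took no part in the test, are given for the leading genes. In derivative 45 (from RTC 1), derivative 9 (from RTC 3) and Apc Min/Min ESCs, Ina was at 10.69, 10.66 and 8.02, Enpp3 at 12.09, 12.36 and 8.75, and Nkx1-2 at 7.98, 7.68 and 10.65. The derivatives were thus close to the ESC values above and Apc Min/Min ESCs close to the RTC values for these 3 genes. Dmgdh was at 6.64, 6.45 and 8.47 and Pglyrp1 at 8.65, 7.41 and 11.36 there, again with the derivatives nearer to the ESCs and Apc Min/Min ESCs nearer to the RTCs. For Obox6 (9.07, 10.63 and 10.04), Zfp352 (7.39, 7.92 and 8.74) and Dazl (9.16, 10.21 and 11.14) the derivatives lay between the RTC and ESC means, and Crxos in Apc Min/Min ESCs, at 5.94, was below every ESC array of the comparison. The germline list as a whole averaged 8.26 and 8.31 in derivatives 45 and 9, above the 8.18 to 8.20 of the RTC arrays. Cd3e was at 9.47 and 9.55 in these derivatives, near the RTC level, and Cd3g at 5.96 and 5.81, near the ESC level. Apc Min/Min ESCs may have been grown in a trophoblast stem cell medium with FGF4, which the labels list for that line, so medium and genotype cannot be told apart there.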

How the data were processed

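Total RNA was labelled for Affymetrix Mouse Gene 1.0 ST type arrays, per the labels' protocols. The deposited values are linear intensities, 1 per probe set and array for 28856 probe sets, and their background correction and scaling are not given in the sources used here. Median intensity on the 6 arrays, as deposited, was 201 to 317, and the number of arrays limits the precision. No batch is named in the labels.

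Values were taken as log2 and quantile normalized over all 18 arrays, and probe sets with exactly 1 symbol (21789) were kept. The probe set with the highest mean stood for a gene. RTC and ESC arrays were compared by the lmFit and eBayes functions of limma 3.58.1 under R 4.3.3 (two-sided, n = 3 and 3), with Benjamini-Hochberg adjustment over all genes tested. The code was tested on simulated data.

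The comparison, the gene lists and the motifs were chosen with earlier results of these data known, so no list has a p of its own. Genes were named by a rule: the 15 largest rises and falls, up to 6 called members per list and direction, up to 4 uncalled ones, members of runs of neighbours and the fixed cell type markers. Outside it, after their values were seen, were named Hormad1, Mael, Tubb3, Pax6, Insm1, Elavl3, Crabp1, Crabp2, Gpm6b, Tjp3, Cgn, Ddx4, Gldc, Dnmt3b, Fgf5, Nodal, Mest and Meg3. The same holds for Mei4, Zcwpw1, Gad1, Npy, Tac2, Nos1, Htr5a and Chrnb4. Promoter sequences are those of RefSeq for GRCm38.p6, matched by symbol.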

Additional observations from a re-analysis of the deposited data

How the results depend on the processing

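Of the 188 genes under the naming rule that passed the test, 0 changed direction under any alternative. The alternatives reuse the same 6 arrays, so a kept direction is no independent support. The total of 808 called genes (388 higher, 420 lower, 48.0% of them higher) depended on the setting. With the values as deposited it was 358 (213 and 145, 59.5% higher). With arrays only centred on their median it was 272 higher and 595 lower (31.4% higher), and the median of all genes moved to -0.14 from -0.03. Averaging the close pairs RTC 2 with RTC 3 and Apc +/+ with Apc Min/+, chosen after seeing the data, left 56 (40 and 16, 71.4% higher), all of them also called with 6 arrays; it has fewer samples. With 1 array left out the total ran from 234 to 1170, with 134 to 467 higher and 100 to 703 lower. The low ends came without RTC 3 (57.3% higher) and the high ends without S33 (39.9% higher); leaving out RTC 1 gave 664, RTC 2 281, Apc +/+ 344 and Apc Min/+ 282. The causes were not tested. Quantile normalization over the 6 arrays, no filter, a stricter filter, all arrays in one fit, limma-trend and the mean of all probe sets gave 380 to 436 higher and 397 to 547 lower. Of the named calls, 118 were made as deposited and 163 with median centring. No paired analysis was possible because the RTC numbers name lines and the ESC arrays carry no matching numbers. Arrays of 3 against 3, no detection p for dim genes and shared probe sequence among gene copies limit these results.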
